A study of Mus musculus with 24 samples.

Results

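Of 23420 genes in each library of CD8+ T cells before and during activation, 189 are the members described here. Each is listed under a provisional identifier, one that ends in Rik or joins Gm to a number. Each also reached a mean of at least 25 TPM over the 3 libraries of at least 1 group. TPM is a level scaled for transcript length and for the library's total. The files list 3155 such provisional models, of which 227 had no count in any library. At the chosen level 191 qualified, and 2 of these were left out because they are 2 of 3 models excluded by name (4632428N05Rik, 5830411N06Rik and 5430427O19Rik). The 189 comprised 143 Rik and 46 Gm models. The members were chosen by their measured TPM in these same libraries, so their levels are a description. A member under 25 TPM in some groups had to be lower there, and 81 were at or above 25 TPM in all 8 groups. Tests over time for the other 108 draw on the values that chose them, so their calls are descriptions too. Just inside the threshold were 2700038G22Rik at 25.4 TPM, Gm12185 at 25.4 TPM and 2310009B15Rik at 25.5 TPM. Just outside were D030028A08Rik at 24.7 TPM, 2010204K13Rik at 24.4 TPM and Gm12216 at 24.3 TPM.

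The study followed OT-I CD8+ T cells, which carry a transgenic T cell receptor, from 6 mice over 24 h of activation in culture. The 3 mice labelled cKO (mice 1 to 3) were E8i-cre+, Tcf7FL/FL and OTI+, and the 3 labelled WT (mice 4 to 6) were E8i-cre-, Tcf7FL/FL and OTI+. Floxed alleles of Tcf7, the gene of the transcription factor TCF1, were thus present in both genotypes, and an effect of the cre transgene and one of the deletion cannot be told apart. E8i is a regulatory element of the Cd8 locus, which directs cre to CD8+ cells. Spleen and lymph node cells were purified on CD8 microbeads and sampled before plating (0 h) and after 4, 8 and 24 h on antibodies to CD3 and CD28 (coating at 1 ug/mL) with murine IL2 at 6 ng/mL. Each of the 24 libraries was made by Smart-seq2, which has no molecular identifiers, from 1000 sorted cells, so that 8 groups of 3 mice were available.

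The libraries held 5846265 to 9700397 expected counts, which are RSEM's estimates of reads per gene. The ribosomal RNA gene Rn45s took 7.39 to 20.6% of them. The members together held 2.81 to 3.07% of all TPM at 0 h and 2.23 to 2.41% at 24 h. Summed TPM of 6 markers of CD8 T cells (Cd8a, Cd8b1, Cd3e, Cd3d, Cd3g and Lck) ran from 1261 to 7150 over the libraries, against at most 1.56 for Cd4 and Foxp3, 52.4 for 4 B cell markers, 2.42 for myeloid, 1.61 for dendritic, 1.15 for NK, 21.5 for erythroid and 77.6 for stromal markers. The B cell sum was almost all Cd79b, and the stromal sum almost all Pecam1. The part of these other cells in the results was not tested. At 4 h the library of cKO mouse 3 had 130 members at or above 25 TPM, against 123 and 123 in those of cKO mice 1 and 2. At 8 h fewer genes had a count in cKO mouse 2 (15193) than in cKO mice 1 and 3 (16061 and 16217). The same held for WT mouse 5 (15147) beside WT mice 4 and 6 (15856 and 16102). By members at or above 25 TPM, however, WT mouse 4 stood apart at 8 h, with 144 against 123 and 123 in WT mice 5 and 6. Tcf7 itself went against the label at the first 3 times: WT libraries gave 499 to 567 TPM and cKO libraries 681 to 719 TPM at 0 h, 180 to 205 against 251 to 271 TPM at 4 h, and 52.6 to 87.4 against 73.6 to 127 TPM at 8 h. At 24 h WT libraries gave 62.6 to 77.0 TPM and cKO libraries 35.7 to 38.3 TPM. A level over the whole gene includes exons outside a floxed stretch and so does not check the deletion; WT and cKO below are the labels of the libraries.

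Rik identifiers come from the RIKEN full-length cDNA collection, and Gm identifiers from automatic prediction on the mouse genome. Such models include proteins that have since received names, long non-coding RNAs, and processed pseudogenes, which are copies of a messenger RNA inserted back into the genome. Naive T cells are small and quiescent, and signals through the T cell receptor and CD28 start growth, ribosome and mitochondrial biogenesis and, after a lag, DNA replication.

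RefSeq of build GRCm38.p6 matched 183 of the 189 members, 178 by transcript and 5 by symbol. For 75 of them it gives another symbol. By its classes, 65 were protein-coding genes that now have a name, 57 were protein-coding without one, 40 were non-coding RNAs and 21 were pseudogenes. Transcripts of 183 members, from GENCODE on GRCm38, were compared with those of all other genes. A near-identical copy, defined as at least 95% identity over at least 80% of its length, was found for 26. A further 19 shared a stretch of at least 200 bases, at 85% identity or more, with 20 or more other genes, and are called repeat-sharing here. Cut into windows of 40 bases, 6 members had every window present in another gene and 59 had none. The median member had 7.78% of its windows shared, so most of the set can be counted on sequence of its own.

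The copies on which results below turn are shown with the gene each resembles, because reads can be told apart only where the letters differ. Each line is a stretch of 60 bases, 5′ to 3′, from the member's transcript or the coding sequence of the other gene, and capitals mark bases that differ. Gm4070 (chromosome 7, 105895139 to 105953967, minus strand) differs at 3 of 7284 aligned bases from Gvin1, a very large interferon-inducible GTPase.
Gm4070: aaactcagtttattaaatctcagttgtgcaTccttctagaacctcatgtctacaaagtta
Gvin1: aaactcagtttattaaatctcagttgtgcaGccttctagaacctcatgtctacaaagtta
Gm12191 (chromosome 11, 49678710 to 49679057, minus strand) differs at 1 of 348 bases from Rpl30, a protein of the large ribosomal subunit.
Gm12191: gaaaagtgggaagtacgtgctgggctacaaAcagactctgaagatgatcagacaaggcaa
Rpl30: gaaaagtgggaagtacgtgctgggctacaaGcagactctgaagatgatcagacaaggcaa
Gm6644 (chromosome 1, 55444074 to 55445024, minus strand) differs at 3 of 951 bases from Akr1b3, an aldose reductase.
Gm6644: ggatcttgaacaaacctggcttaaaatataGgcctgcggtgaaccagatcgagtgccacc
Akr1b3: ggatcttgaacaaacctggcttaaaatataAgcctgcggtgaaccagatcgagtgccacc
Gm10052 (chromosome 9, 123689233 to 123690192, minus strand) equals the coding sequence of Hnrnpa1, an RNA-binding protein of splicing, at all 960 bases.
Gm10052: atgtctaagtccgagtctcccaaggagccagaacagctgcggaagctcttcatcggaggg
Hnrnpa1: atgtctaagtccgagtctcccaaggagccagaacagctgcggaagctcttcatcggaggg
Gm14085 (chromosome 2, 122484941 to 122528040, plus strand), now Slc28a2b, is more diverged, with 57 of 1536 bases unlike its neighbour in family Slc28a2, a nucleoside transporter. The stretch shown holds 13 of them.
Gm14085: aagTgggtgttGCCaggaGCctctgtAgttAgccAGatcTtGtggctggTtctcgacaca
Slc28a2: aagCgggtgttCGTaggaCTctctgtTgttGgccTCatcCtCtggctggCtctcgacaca

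Most members differed between 0 h and the later times. Cells of 0 h were sampled before plating, and no group was cultured without the antibodies. Effects of activation, IL2 and culture therefore cannot be told apart. In WT, 56 were higher and 67 lower at 4 h than at 0 h. These are 65.1% of the members, against 59.0% of all 11470 genes tested (30.0% higher and 29.1% lower). At 8 h 68 were higher and 69 lower, 72.5% against 67.4% of all genes (33.4% and 34.0%). At 24 h 75 were higher and 86 lower, 85.2% against 77.0% of all genes (36.9% and 40.1%). In cKO 50 were higher and 63 lower at 4 h, 59.8% against 57.2% of all genes (29.6% and 27.6%). At 8 h 66 were higher and 62 lower, 67.7% against 65.6% (33.1% and 32.4%). At 24 h 73 were higher and 82 lower, 82.0% against 76.3% (37.3% and 39.0%). A call is an adjusted p under 0.05 by edgeR's quasi-likelihood test fitted on all genes, and all 189 members passed its filter on low counts. The shares lie near those of all genes, so they are no result about the members. The median fitted log2 change of the members at 24 h in WT was −0.12, against −0.08 over all genes. At 24 h in WT 97 of the called members differed by at least 2-fold and 45 by at least 4-fold, 51.3% and 23.8% of the members against 49.3% and 22.4% of all genes. In bulk libraries a change in the number of cells that carry an RNA and a change in RNA per cell cannot be told apart.

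**Figure D1:**
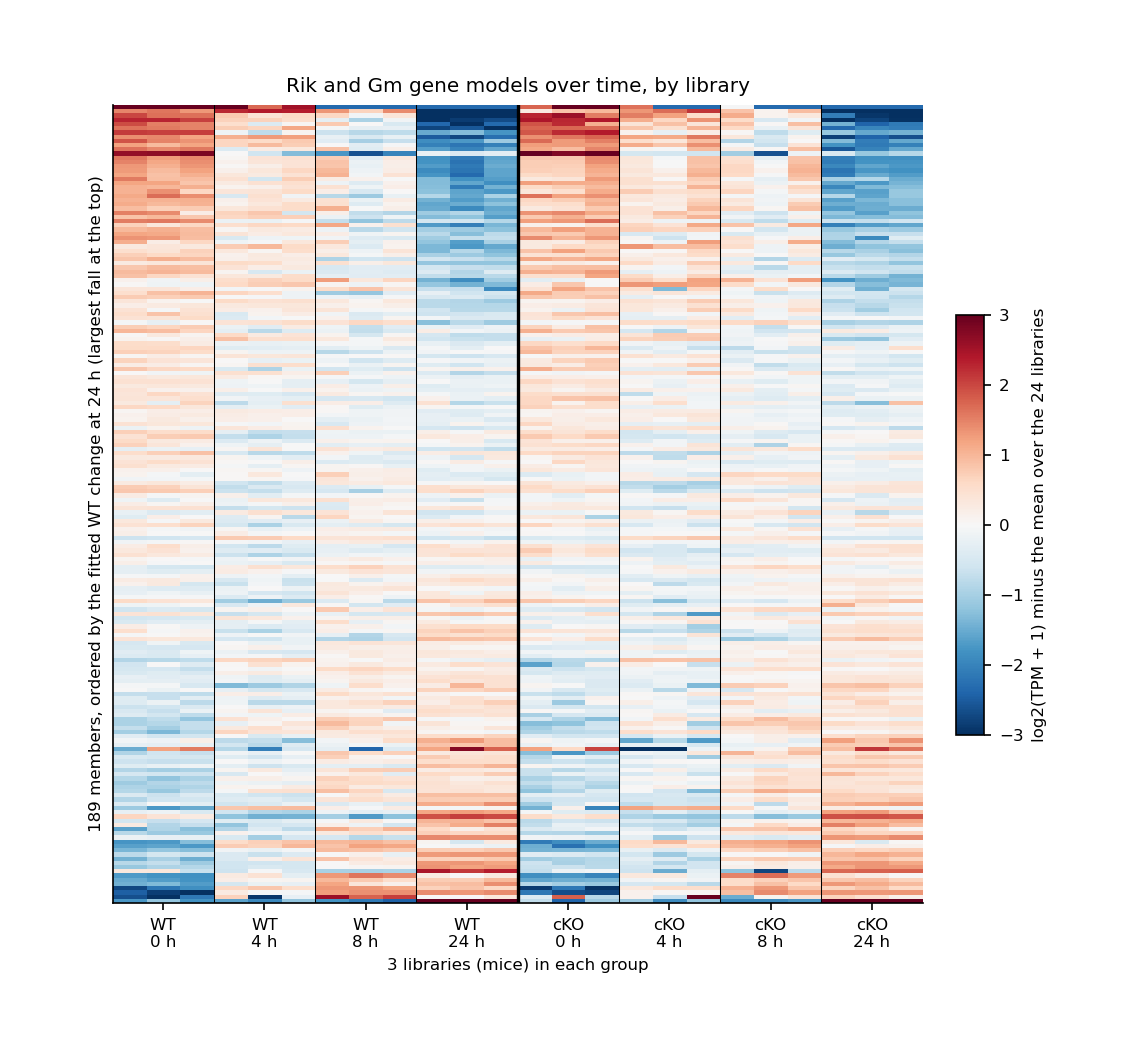
Each row is 1 of the 189 members and each column 1 of the 24 libraries, with log2(TPM + 1) centred on the member's mean and the colours ending at −3 and 3. The upper rows, the members that fell most in WT at 24 h, are high in the libraries of 0 h and low in those of 24 h in both genotypes.

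In WT 41 members (21.7%, against 20.0% of all genes) were higher at all 3 later times and 45 (23.8%, against 18.6%) were lower at all 3. Another 23 (12.2%, against 8.59%) were called in opposite directions at different times. Among them 8 were lower at 4 h and higher at 24 h (4.23%, against 3.96% of all genes), and 12 were higher at 4 h and lower at 24 h (6.35%, against 3.69%). A further 11 were higher at 24 h alone (5.82%, against 5.69%), and 9 were called at no time (4.76%, against 9.37%). These time comparisons share their 0 h libraries within a genotype. WT and cKO share none: of the members higher at 24 h, 70 were called in both genotypes, 93.3% of the 75 in WT and 95.9% of the 73 in cKO, against 94.6% and 93.5% over all genes. Of those lower at 24 h, all 82 of cKO were among the 86 of WT, 100% of cKO and 95.3% of WT, against 93% and 90.4% over all genes. At 4, 8 and 24 h 0 members were called in opposite directions in the 2 genotypes, against 5, 6 and 0 of all genes.

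**Figure D2:**
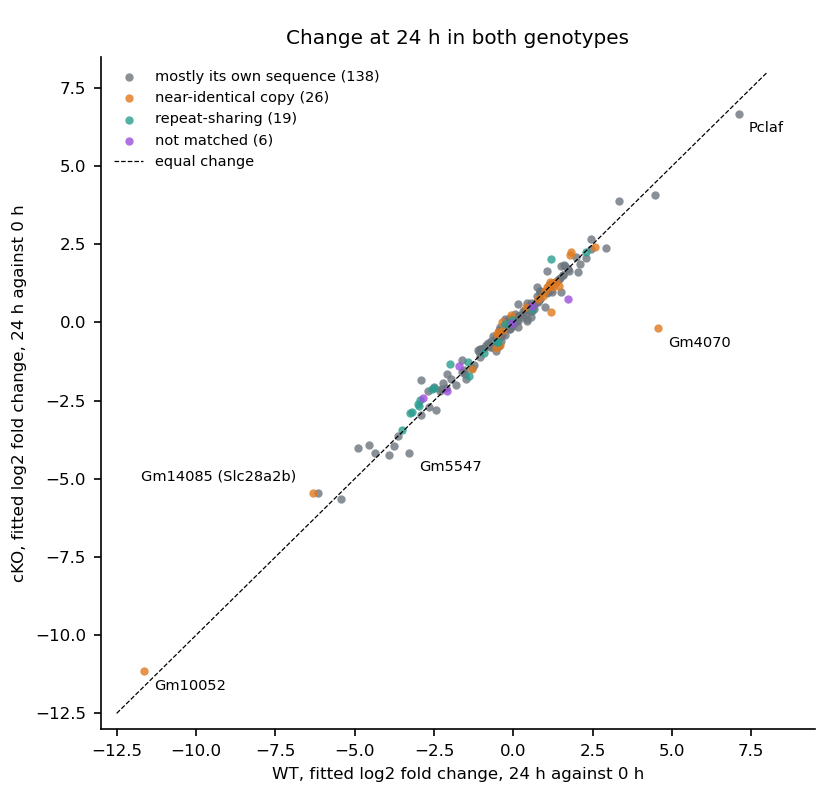
Each point is a member, placed by its fitted log2 change from 0 to 24 h in WT (horizontal) and cKO (vertical) and coloured by the kind of sequence it holds. Most points lie along the line of equal change, from Ifit1bl1 at −6.15 and −5.45 to Pclaf at 7.10 and 6.68, and Gm4070 lies far from it. Gm10052, at the lower left, had no count at 24 h, so its place depends on the prior count of the fit and is no measured fold.

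Directions at 24 h in WT were counted by class. Of 40 non-coding RNAs 9 were higher and 28 lower, with a median log2 change of −1.65. Of 57 protein-coding members without a name 30 were higher and 17 lower (median 0.36), and of 65 that have received one 26 were higher and 27 lower (median −0.05). Pseudogenes gave 8 higher and 11 lower of 21. The 26 near-identical copies gave 15 higher and 8 lower, the 19 repeat-sharing members 3 higher and 15 lower, and the 138 with mostly their own sequence 55 higher and 60 lower. Over all genes 36.9% were higher and 40.1% lower. The differences between these classes were not tested.

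The largest fitted rise belonged to a gene of DNA replication. 2810417H13Rik, now Pclaf (chromosome 9, 65890237 to 65903266, plus strand), encodes a small protein that binds the sliding clamp PCNA at replication forks. Its WT libraries of mice 4, 5 and 6 gave 1.72, 3.05 and 1.58 TPM at 0 h, 1.99, 1.39 and 3.04 TPM at 4 h, 1.61, 1.10 and 0.70 TPM at 8 h, then 293, 285 and 280 TPM at 24 h. The cKO libraries of mice 1, 2 and 3 went from 4.46, 0.75 and 3.36 TPM at 0 h to 276, 276 and 272 TPM at 24 h. No library before 24 h came near any library of 24 h. Pclaf entered the set only through its 24 h level, so this gap and the p below describe and are no independent support. The fitted log2 change was 7.10 ± 0.314 (SE) in WT, with an adjusted p of 2.48e-13 by edgeR, and 6.68 in cKO. The other 6 members of DNA replication and repair were spread over all patterns. Hpf1 (2700029M09Rik), the partner of PARP1 in histone ADP-ribosylation, went from a WT mean of 44.7 TPM at 0 h to 133 TPM at 24 h (log2 change 1.61). Faap24 (C230052I12Rik), of the Fanconi anaemia core complex, went from 17.4 to 49.6 TPM, and Faap20 (2610002J02Rik) from 35.1 to 47.6 TPM after 19.0 TPM at 4 h. Faap100 (2310003H01Rik) of the same complex was highest early, at 42.0 TPM at 4 h against 14.2 TPM at 0 h and 23.0 TPM at 24 h. Hmces (8430410A17Rik), which shields abasic sites in single-stranded DNA, rose to 51.9 TPM at 8 h from 33.9 TPM and then fell to 17.1 TPM. Shld1 (1110034G24Rik), a subunit of the shieldin complex of double-strand break repair, fell from 49.8 to 11.4 TPM. At 24 h 5 of these 7 were thus higher and 2 lower in WT (36.9% and 40.1% of all genes). Here and below, roles were assigned by hand after values were seen, and counts by role are descriptions that were not tested against other genes.

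**Figure D3:**
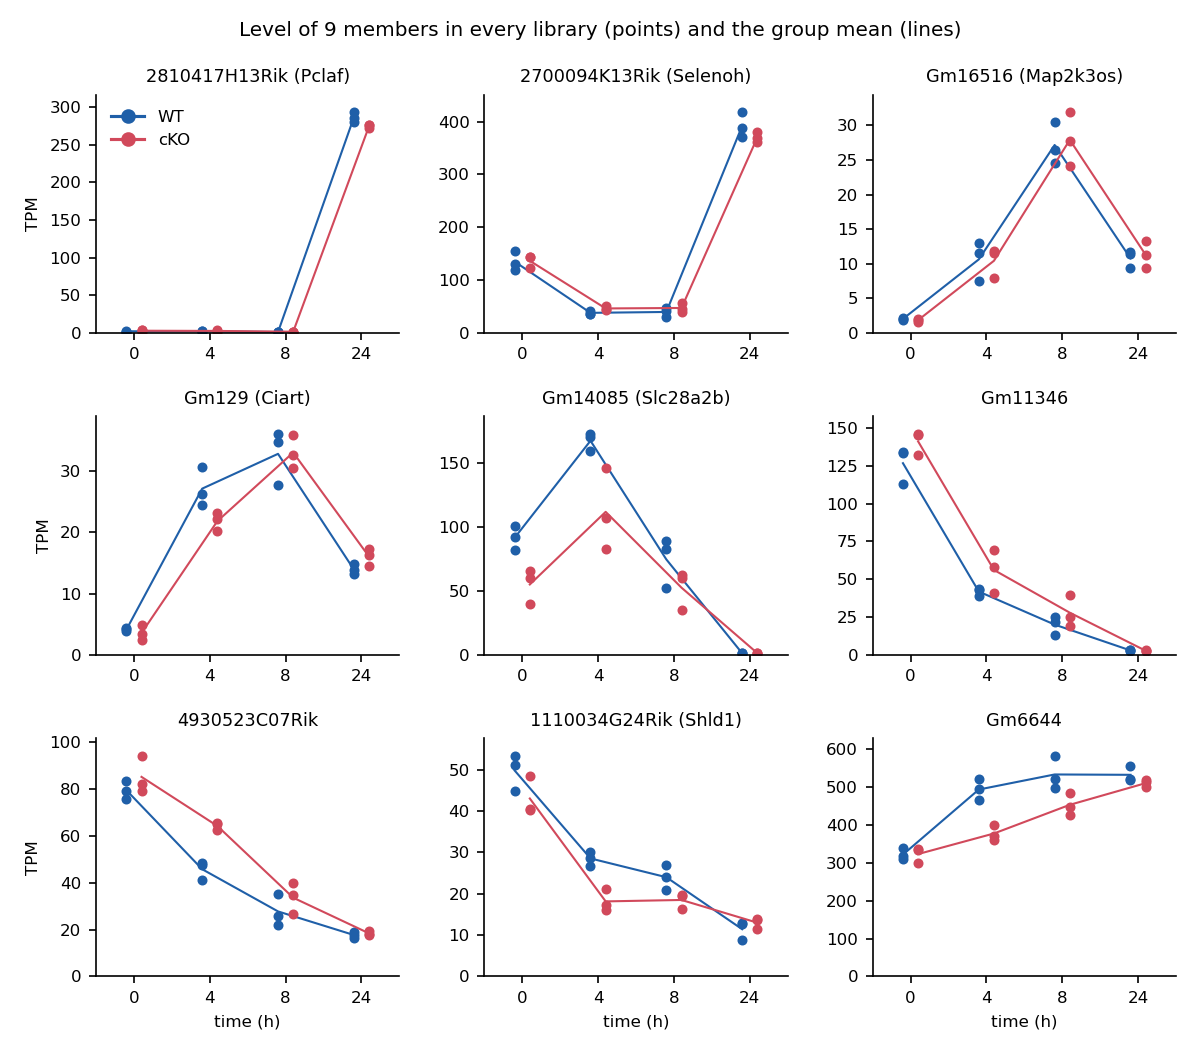
TPM of 9 members against time (0, 4, 8 and 24 h, evenly spaced), with a point for each library and lines through the means of the 3 WT and the 3 cKO libraries. Pclaf stays under 5 TPM until 8 h and lies between 272 and 293 TPM at 24 h, while the 3 panels of the bottom row show the members called between genotypes at 4 h.

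Pclaf and the non-coding Map2k3os are shown by their promoters, since both moved steeply and both windows hold letters of the kind bound by E2F factors, regulators of S phase genes. The letters searched were TTTCGCGC, TTTGGCGC, TTTCCCGC and TTTGCCGC on both strands, which do not overlap other motifs searched. They occur in 2.61% of the 27025 genes with a promoter sequence in RefSeq (250 bases before the start to 50 after) and in 5 of 136 members (3.68%). The other letters searched were TGACGTCA (CRE), in 6 of 136 members and 2.03% of all genes, and TGACTCA and TGAGTCA (AP-1), in 2 members and 5.95% of genes. A match of letters is no evidence of binding. The first 270 bases of each window follow, 5′ to 3′ on the strand of the gene, with the E2F letters in capitals (chr9:65890073-65890342, plus strand, and chr11:60931848-60932117, minus strand, GRCm38.p6).
Pclaf: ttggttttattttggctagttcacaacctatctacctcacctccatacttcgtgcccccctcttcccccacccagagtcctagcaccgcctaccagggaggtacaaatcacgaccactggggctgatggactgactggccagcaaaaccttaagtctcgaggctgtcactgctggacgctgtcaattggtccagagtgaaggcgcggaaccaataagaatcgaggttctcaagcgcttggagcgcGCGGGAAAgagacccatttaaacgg
Map2k3os: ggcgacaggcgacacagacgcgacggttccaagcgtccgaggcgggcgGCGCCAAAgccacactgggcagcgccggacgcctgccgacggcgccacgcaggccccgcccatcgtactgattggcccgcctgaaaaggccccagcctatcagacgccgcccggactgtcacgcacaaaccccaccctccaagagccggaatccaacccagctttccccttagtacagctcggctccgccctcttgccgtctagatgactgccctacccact
In Pclaf the letters span bases 246 to 253 of the window, near the start site. In Map2k3os they span bases 49 to 56.

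Map2k3os (Gm16516, chromosome 11, 60920917 to 60931867, minus strand) starts 166 bases from Map2k3, the kinase of p38 MAP kinases, and is read the other way. Its WT libraries gave 2.18, 1.98 and 1.92 TPM at 0 h, 11.5, 12.9 and 7.45 TPM at 4 h, 24.5, 30.5 and 26.5 TPM at 8 h, then 11.4, 9.35 and 11.6 TPM at 24 h. All libraries of 8 h lay above those of the other times in WT. In WT only the 8 h mean reached the 25 TPM that chose the members, so this is a description. Fitted log2 changes from 0 h were 2.47 ± 0.301 (SE), 3.89 ± 0.276 and 2.44 ± 0.292, and in cKO 2.56, 4.01 and 2.66. Map2k3 had its highest WT libraries at 4 h, 912 to 1046 TPM, after 45.5 to 50.2 TPM at 0 h, and stood at 729 to 840 TPM at 8 h and 202 to 213 TPM at 24 h. Over the 24 libraries the levels of the pair on a log2 scale had a Pearson r of 0.84, and of 0.38 once each group's mean was removed. For other pairs of genes below, r kept the group means, so any change over time that both genes show enters it. The libraries are not stated to be stranded, so reads of overlapping or antisense neighbours cannot be assigned by strand.

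With Map2k3os, 8 non-coding members have a name. Of the 8, 6 were called higher and 0 lower at 4 h in WT (30.0% and 29.1% of all genes), 6 higher and 1 lower at 8 h (33.4% and 34.0%), and 5 higher and 1 lower at 24 h (36.9% and 40.1%). Snhg15 (Gm11974), host of a small nucleolar RNA, went from 88.6, 70.5 and 99.4 TPM at 0 h to 284, 242 and 235 TPM at 4 h, 223, 259 and 249 TPM at 8 h, followed by 194, 180 and 173 TPM at 24 h. All later WT libraries lay above all those of 0 h. Snhg16 (1810032O08Rik) and Snhg20 (2810008D09Rik), of the same kind, rose at 4 h (log2 changes 0.84 and 0.44) and 8 h (0.82 and 0.66), and at 24 h stood at −0.08 (not called) and −0.39 (called lower). Norad (2900097C17Rik), a cytoplasmic RNA that binds Pumilio proteins, had WT means of 44.5, 67.6, 90.2 and 59.6 TPM over the 4 times. Oip5os1 (1700020I14Rik) ended at 37.2 TPM from 19.2 TPM. Lockd (1190002F15Rik), transcribed beside the cell cycle inhibitor gene Cdkn1b, was the late one, with 7.34, 7.56 and 3.22 TPM at 0 h, 2.41, 2.42 and 2.50 TPM at 8 h, then 35.9, 28.3 and 33.4 TPM at 24 h. Epb41l4aos (2410004N09Rik) was called at no time, with WT means between 87.4 and 97.9 TPM.

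Selenoproteins of the set moved in opposite ways. Selenoh (2700094K13Rik, chromosome 2, 84669215 to 84670770, minus strand), a nucleolar redox protein, gave 154, 131 and 119 TPM in the WT libraries of 0 h, 41.9, 35.5 and 36.3 TPM at 4 h, 48.0, 29.7 and 41.1 TPM at 8 h, then 371, 418 and 387 TPM at 24 h. The middle times lay below and the last above every library of 0 h. Log2 changes were −1.76 ± 0.134, −1.67 ± 0.132 and 1.57 ± 0.114 (SE), each with an adjusted p of at most 7.34e-14 by edgeR. In cKO they were −1.50, −1.44 and 1.51. Selenot (2810407C02Rik), of the endoplasmic reticulum, was higher at 4 and 8 h (0.41 and 0.43) and lower at 24 h (−0.44).

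Among 11 members of mitochondrial assembly and function, 0 were higher and 6 lower at 4 h in WT (30.0% and 29.1% of all genes), 4 and 5 at 8 h (33.4% and 34.0%), and 4 and 2 at 24 h (36.9% and 40.1%). Fmc1 (1110001J03Rik), an assembly factor of ATP synthase, gave 52.2, 47.1 and 44.5 TPM at 0 h, 16.3, 12.1 and 15.7 TPM at 4 h, followed by 63.9, 57.5 and 69.9 TPM at 24 h. The 4 h libraries were below all of 0 h, and the 24 h change was not called (log2 0.42, adjusted p 0.0665 by edgeR). Dmac1 (3110001D03Rik), for complex I, had WT means of 104, 38.9, 57.7 and 78.5 TPM. Sdhaf4 (1110058L19Rik), for succinate dehydrogenase, had 45.2, 19.4, 19.1 and 30.3 TPM, and both were lower at all 3 times. Dele1 (0610009O20Rik), which relays mitochondrial stress, and Smim20 (1810013D10Rik), for complex IV, were lower at 4 and 8 h and not called at 24 h. The members that ended higher were Mtres1 (1700021F05Rik), a factor of mitochondrial transcription, from 15.7 to 63.3 TPM (log2 2.04), Maip1 (9430016H08Rik), 0.85, Ndufaf8 (1810043H04Rik), for complex I, 0.60, and Smdt1 (1500032L24Rik), a subunit of the calcium uniporter, 0.54. Micos13 (2410015M20Rik), of the cristae junctions, was lower at 4 h alone, and Atp5mpl (2010107E04Rik), a small ATP synthase subunit, was higher at 8 h alone (log2 0.37).

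Of 6 members with roles in RNA and ribosomes, 2 were higher and 0 lower at 4 h in WT (30.0% and 29.1% of all genes), and 3 higher and 2 lower at 24 h (36.9% and 40.1%). Rbis (1810022K09Rik), a factor of ribosome biogenesis, gave 203, 234 and 247 TPM at 0 h, 390, 379 and 358 TPM at 4 h, 624, 643 and 622 TPM at 8 h, then 592, 536 and 594 TPM at 24 h. Each later time lay above all libraries of 0 h, with log2 changes of 0.75, 1.55 and 1.33. Sf3b6 (0610009D07Rik), a splicing factor, went from 110 to 173 TPM, and Rtraf (2700060E02Rik) from 149 to 247 TPM. Nbdy (2210013O21Rik), a microprotein of mRNA decapping, fell to 11.1 TPM at 8 h from 36.6 TPM, and Khdc4 (2810403A07Rik) fell by 1.09 on the log2 scale at 24 h. Trir (2310036O22Rik) was called at no time.

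The set holds 6 members of lysosomes, endosomes and autophagy. In WT 0 were called higher and 4 lower at 4 h (30.0% and 29.1% of all genes), all 6 were lower at 8 h (34.0% of all genes), and at 24 h 5 were lower and 1 higher (40.1% and 36.9%). Glmp (0610031J06Rik), a lysosomal membrane glycoprotein, gave 102, 119 and 109 TPM in WT at 0 h, 62.8, 68.2 and 68.7 TPM at 4 h, 29.2, 37.2 and 36.2 TPM at 8 h, then 37.7, 34.9 and 31.7 TPM at 24 h. All later libraries were below those of 0 h. Its log2 change at 24 h was −1.62 ± 0.126 (SE, adjusted p 3.31e-14 by edgeR), and −1.58 in cKO. Borcs8 (2310045N01Rik), of the complex that positions lysosomes, went from 120 to 41.0 TPM, and Rmc1 (3110002H16Rik), which acts with Rab7, from 75.3 to 30.8 TPM. Vps35l (9030624J02Rik), of the retriever recycling complex, and Atg101 (9430023L20Rik), of the autophagy initiation complex, were lower by 0.68 and 0.34 on the log2 scale. Washc4 (A230046K03Rik), of the endosomal WASH complex, ended higher (0.58) after −0.43 at 8 h.

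Of the 6 members linked to interferon (GTPases and antiviral proteins), 3 were higher and 1 lower at 4 h in WT (30.0% and 29.1% of all genes), 3 and 2 at 8 h (33.4% and 34.0%), and 2 and 3 at 24 h (36.9% and 40.1%). Gm4070 is counted as higher at all 3 times, but summed with its near-identical copy Gvin1 it stood at 0.37 at 4 h and −0.12 at 8 h (neither called) and was lower at 24 h (−2.55). Gm12250, an immunity-related GTPase, gave 23.9, 15.0 and 17.5 TPM in WT at 0 h, 92.3, 98.2 and 102 TPM at 4 h, 59.6, 50.8 and 61.4 TPM at 8 h, followed by 49.8, 49.6 and 55.5 TPM at 24 h. In cKO at 0 h the library of mouse 2 had 57.4 TPM against 18.8 and 12.5 TPM in the others. Ifit1bl1 (Gm14446, chromosome 19, 34592891 to 34601956, minus strand), of a family of interferon-induced RNA-binding proteins, gave 84.5, 65.6 and 66.1 TPM at 0 h, then 0.71, 1.29 and 0.87 TPM at 24 h in WT. Its cKO libraries went from 102, 126 and 60.7 TPM to 4.04, 1.81 and 0.57 TPM. The log2 changes were −6.15 ± 0.524 (SE) and −5.45. Gm4759 fell from 27.8 to 2.16 TPM. Gm12185, which overlaps the GTPase gene Tgtp1 on the same strand, rose to 17.3 TPM at 4 h from 9.5 TPM and ended at 3.5 TPM, and its r with Tgtp1 over the 24 libraries was 0.93. Shfl (A230050P20Rik), which blocks programmed frameshifting, was higher at 8 h alone (0.61).

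Outside these roles, the largest falls at 24 h included a transporter and several transcripts of unknown function. Slc28a2b (Gm14085) gave 92.1, 101 and 82.1 TPM in WT at 0 h, 160, 173 and 171 TPM at 4 h, 82.7, 52.5 and 89.0 TPM at 8 h, then 0.88, 1.18 and 1.30 TPM at 24 h. It thus rose (log2 0.97 ± 0.224) before it fell by 6.30 ± 0.332 (SE) on the log2 scale, and all 24 h libraries lay far below the rest. In cKO it stood at 39.7, 60.1 and 65.5 TPM at 0 h, followed by 1.54, 0.76 and 1.27 TPM at 24 h. Slc28a2, its relative, fell at once, with 64.1 to 73.1 TPM at 0 h, 28.8 to 36.0 TPM at 4 h and 8.08 to 10.8 TPM at 24 h in WT. As a sum, the pair had WT means of 355 CPM at 0 h, 468 CPM at 4 h and 24.1 CPM at 24 h. The share of the pair's counts on Slc28a2b was 55.9%, 83.1% and 10.4% at these times. Gm11346 (chromosome 13, 24596347 to 24604925, minus strand), a pseudogene, went from 134, 133 and 113 TPM at 0 h through 43.1, 43.5 and 38.7 TPM at 4 h and on through 21.8, 13.3 and 24.6 TPM at 8 h to 2.32, 2.84 and 3.26 TPM at 24 h, a fall at each step with no overlap. Tdrp (2610019F03Rik) stood at −0.06 on the log2 scale at 4 h (not called) and then fell by 1.51 at 8 h and 3.93 at 24 h. The non-coding A930005H10Rik went from 111 to 123 TPM at 0 h to 3.16 to 5.77 TPM at 24 h in WT (−4.55), and Gm19705 from 44.7 to 62.1 TPM to 0.52 to 2.23 TPM (−4.90). 4930481A15Rik (−3.77) and 1810034E14Rik (−4.35) behaved alike in both genotypes, with −3.95 and −4.16 in cKO.

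Gm5547, a non-coding RNA on chromosome 3 (105815540 to 105817357, plus strand), had the largest fall at 4 h among the called members without overlap (log2 −3.50 in WT). Its WT libraries gave 37.0, 38.4 and 42.4 TPM at 0 h, 5.16, 3.05 and 1.49 TPM at 4 h, 0.82, 0 and 0.56 TPM at 8 h, then 4.27, 3.58 and 3.90 TPM at 24 h. The 3 libraries of 8 h held 2 counts together against 194 at 0 h, a ratio of 98.7 with an exact 95% counting interval from 27.0 to 821. Of the members near a protein-coding gene, Gm20605 overlaps Lrch4 on the same strand. It went from 30.2 to 33.5 TPM at 0 h to 4.09 to 6.08 TPM at 8 h in WT. Its r with Lrch4 over the libraries was 0.95, with group means kept, and was not tested within groups.

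After Pclaf and the copy Gm4070 (4.55 alone, but −2.55 when summed with Gvin1), the next largest rises at 24 h in WT were those of 2 protein-coding members without a name. 3110082I17Rik (chromosome 5, 139359739 to 139460527, minus strand) gave 6.38, 4.66 and 3.63 TPM at 0 h, 48.0, 38.0 and 37.5 TPM at 4 h, 95.3, 103 and 104 TPM at 8 h, followed by 107, 98.2 and 106 TPM at 24 h in WT. The gene reached its plateau by 8 h (log2 4.53 ± 0.186 at 8 h and 4.46 ± 0.185 at 24 h, SE), and in cKO the changes were 3.98 and 4.07. It spans the receptor gene Gpr146 on the other strand, which fell from 42.8 to 47.5 TPM to 1.64 to 2.22 TPM in WT, so that r was −0.87. 1810055G02Rik (chromosome 19, 3708293 to 3717881, plus strand) rose from 1.72, 3.02 and 4.03 TPM to 26.6, 30.5 and 24.9 TPM at 4 h, then to 43.0, 44.0 and 39.7 TPM at 8 h, and stood at 28.1, 31.4 and 26.6 TPM at 24 h. Carnmt1 (2410127L17Rik), the carnosine methyltransferase, gave 3.46, 3.86 and 2.82 TPM at 0 h, then 21.3, 22.2 and 31.0 TPM at 24 h. Erg28 (0610007P14Rik), a scaffold of the sterol synthesis enzymes, climbed at each step from 37.6, 43.4 and 45.7 TPM through 54.4, 60.2 and 57.3 TPM and 83.6, 86.1 and 88.9 TPM to 214, 193 and 204 TPM, with no overlap between times. The repeat-sharing pseudogene Gm5177 rose by 2.30 on the log2 scale.

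A transient rise was seen for a handful of members. Ciart (Gm129), a repressor of the circadian clock, gave 4.14, 4.31 and 3.81 TPM at 0 h, 26.2, 24.5 and 30.7 TPM at 4 h, 27.7, 36.1 and 34.7 TPM at 8 h, followed by 14.8, 13.9 and 13.2 TPM at 24 h in WT. Levels at 4 and 8 h exceeded those of both ends in every library. In WT only these times reached the mean of 25 TPM that chose the members, so this is a description. 2410002F23Rik, on chromosome 7, gave 79.2, 79.9 and 85.8 TPM, then 210, 206 and 184 TPM, 160, 166 and 173 TPM, and at 24 h 79.7, 82.7 and 73.5 TPM, a log2 change of −0.01 over the whole course (adjusted p 0.939 by edgeR). 9430038I01Rik rose by 0.93 and 1.21 at 4 and 8 h and stood at 0.16 (not called) at 24 h. At the other extreme, the members with the most even group means were 2310011J03Rik, 1810058I24Rik, Epb41l4aos, 1110038F14Rik, Atp5mpl and 1500012F01Rik. 2310011J03Rik lay between 46.5 and 64.8 TPM in all 24 libraries.

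The 4 highest mean levels belonged to models that resemble ribosomal genes or mitochondrial ribosomal RNA, among them Gm12191. Gm20594, annotated as protein-coding on chromosome 6 (79817916 to 79818364, plus strand), was 88.4% identical over 439 of its 449 bases to mt-Rnr2, the large mitochondrial ribosomal RNA. Its WT libraries gave 4540 to 4956 TPM at 0 h and 3171 to 3838 TPM at 24 h. Gm15772, which is 99.5% identical to the ribosomal protein gene Rpl26, went from a WT mean of 4204 to 2877 TPM, while Rpl26 was at 633 and 858 TPM. Rps27rt (Gm9846), a retrogene of Rps27, had 3137 and 1266 TPM beside 11163 and 2289 TPM for Rps27. Ubb-ps (Gm1821), a copy of the ubiquitin gene Ubb, had 707 and 556 TPM. Gm20594, Gm15772, Rps27rt and Ubb-ps were all called lower at 24 h in WT.

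For near-identical copies the count of a copy and that of its parent gene depend on how RSEM divides shared reads. For 23 of the 26 copies the parent is in the files, and both were also fitted as 1 sum, an alternative added after the data had been seen. At 24 h in WT 20 copies and 20 sums were called. Of these, 16 were called in the same direction, 2 (Gm4070 and Gm10052) in opposite directions, and 2 copies (Gm12191 and Gm14288) were called where their sum was not.

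Gm4070 gave 0.25, 0 and 0.77 TPM in WT at 0 h, 11.7, 0.03 and 5.58 TPM at 4 h, 45.0, 25.7 and 31.9 TPM at 8 h, then 6.90, 6.92 and 8.77 TPM at 24 h. Gvin1 moved the other way, with 49.97, 49.6 and 57.9 TPM at 0 h, 9.55, 5.22 and 15.6 TPM at 8 h, then 1.13, 1.13 and 1.26 TPM at 24 h. In WT the copy was called higher at 24 h (log2 4.55 ± 1.61, SE, adjusted p 0.0166 by edgeR), a call lost without mouse 4, 5 or 6. The sum of both was lower (−2.55 ± 0.243, adjusted p 3.20e-08). The share of the pair's counts on Gm4070 went from 0.650% at 0 h to 9.27% at 4 h, 77.0% at 8 h and 86.5% at 24 h in WT, and in cKO it was 17.8%, 29.7%, 11.7% and 84.1%. Within cKO at 4 h mouse 3 had 68.4 TPM of Gm4070 and 15.7 TPM of Gvin1, while mice 1 and 2 had 7.46 and 3.85 TPM beside 86.2 and 79.4 TPM. Among groups with a mean of at least 25 TPM, this was the widest ratio between libraries of any member. Below that level the ratio can be wider, as in WT at 4 h. As a sum, the 4 h level was 357 ± 39.98 CPM in WT and 473 ± 32.8 CPM in cKO (SD, n = 3).

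Gm10052, equal to the coding sequence of Hnrnpa1, gave 52.9, 72.02 and 72.4 TPM in WT at 0 h and 107, 15.7 and 28.1 TPM at 4 h, and was at 0 in all WT libraries of 8 and 24 h. With a floor of 3 counts for the whole group, the count RSEM assigned to it was at least 396-fold lower at 8 h in WT. At 24 h this count was at least 486-fold lower in WT and at least 319-fold lower in cKO. These bounds cover counting error only, and not the division of shared reads between Gm10052 and Hnrnpa1. Hnrnpa1 itself rose from a WT mean of 425 TPM to 1845 TPM, and the sum of both rose (2.00 ± 0.0850 at 24 h, SE, adjusted p 8.26e-22 by edgeR). The share on Gm10052 was 10.7% at 0 h, 5.70% at 4 h and 0 from 8 h. Gm10052 lies within Ccr9, a chemokine receptor gene, on the other strand, and Ccr9 went from 76.1 to 88.9 TPM at 0 h to 0.41 to 0.83 TPM at 24 h in WT. Their levels had an r of 0.74 over the libraries, and a part of Ccr9 reads in this result was not tested.

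Gm12191 took most of the pair it forms with Rpl30. WT libraries gave 3116, 3400 and 3426 TPM of Gm12191 at 0 h and 2343, 2297 and 2436 TPM at 24 h, while Rpl30 went from 89.7, 143 and 94.1 TPM to 646, 588 and 616 TPM. The copy fell by 0.48 ± 0.0765 (SE), and the sum stood at −0.14 ± 0.0729 (adjusted p 0.0722 by edgeR, not called). The share on the copy fell from 96.1% to 76.3%. Other pairs differed in this. With group means kept, r was −0.72 for Gm15772 and Rpl26 and −0.71 for Gm5424 and Ass1. It was −0.70 for Gm10094 and Sap18, −0.64 for Gm6644 and Akr1b3, and 0.0045 for Gm14288 and Gm14440. Some pairs moved together. Tdg-ps2 (Gm9855) rose from 20.7 to 25.5 TPM to 125 to 147 TPM in WT, with an r of 0.89 with Tdg, the thymine DNA glycosylase. Gm12669 had an r of 0.94 with Glrx3, a glutaredoxin, and Gm6793 of 0.88 with Hnrnpa3. Gm7334 equals Btg3, an antiproliferative gene, over its whole length. It rose from 3.65, 3.82 and 5.52 TPM at 0 h to 30.4, 31.2 and 28.1 TPM at 8 h, and the files list Btg3 at 0 in 21 of the 24 libraries.

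**Figure D4:**
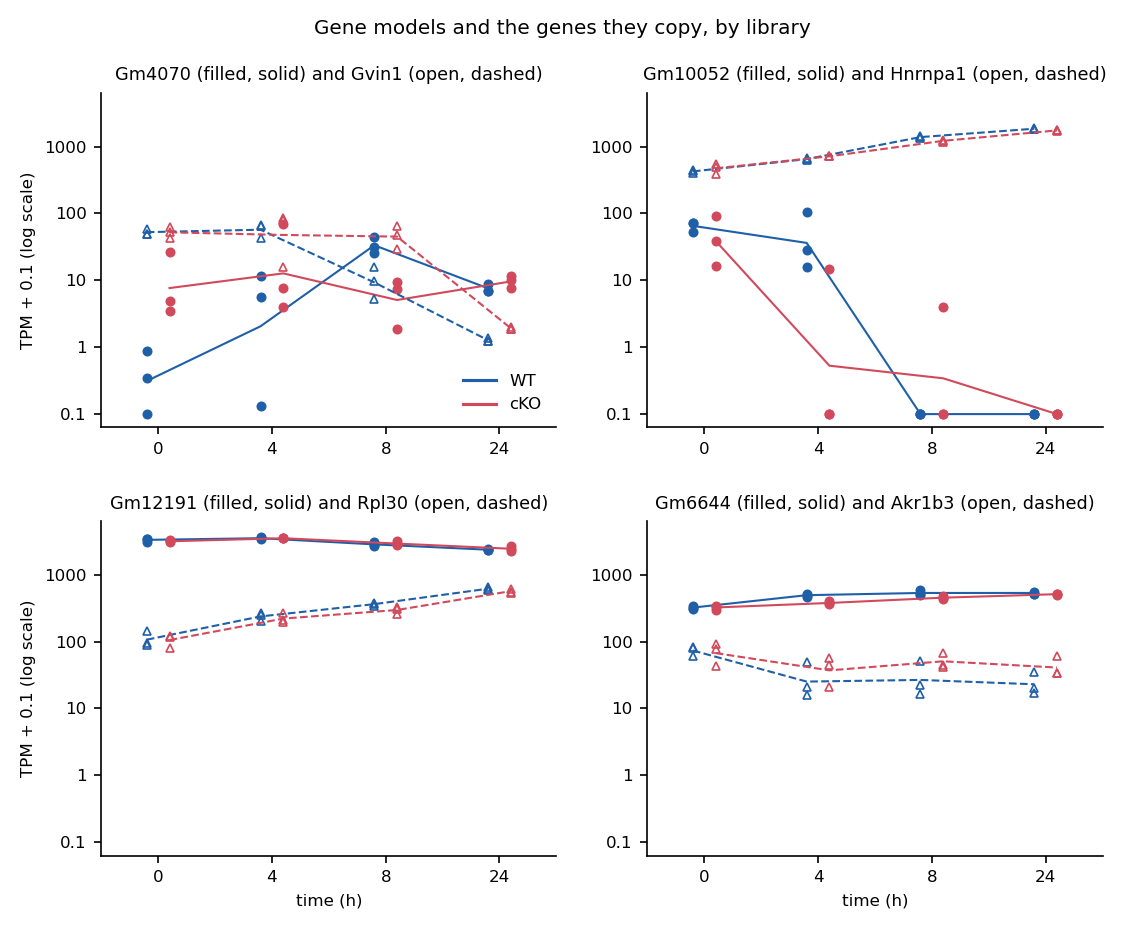
TPM plus 0.1 on a log scale against time for 4 copies (filled circles, solid lines) and their parent genes (open triangles, dashed lines), with 3 points a group and lines through the means of the log values. Gm4070 and Gvin1 cross in WT, Gm10052 drops to 0 while Hnrnpa1 rises, and Gm12191 and Gm6644 stay above their parents in every library.

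Several repeat-sharing members ran in parallel over the libraries. A130077B15Rik (chromosome 10, 122565023 to 122569891, minus strand), a non-coding RNA, shares 200 bases or more with 496 other genes. A stretch of 30 bases of each of 3 such members is shown to make the sharing visible. It occurs unchanged, on either strand, in 120, 158 and 24 other genes respectively. Of the other members, 1 (Gm7102) holds the stretch of 2310039L15Rik, and 0 hold that of A130077B15Rik or that of 4930470H14Rik.
A130077B15Rik: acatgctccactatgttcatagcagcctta
2310039L15Rik: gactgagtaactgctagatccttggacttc
4930470H14Rik: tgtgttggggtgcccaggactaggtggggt
A130077B15Rik gave 1534, 1235 and 1476 TPM in WT at 0 h, 707, 806 and 972 TPM at 4 h, 1257, 575 and 746 TPM at 8 h, followed by 171, 138 and 213 TPM at 24 h. Mouse 4 was high at 8 h, and all libraries of 24 h were below all others. In cKO mouse 3 was the highest at 0, 4 and 8 h, with 1387, 1248 and 1308 TPM against at most 1044, 836 and 978 TPM in mice 1 and 2. The WT log2 changes were −0.68 ± 0.250, −0.60 ± 0.249 and −2.98 ± 0.269 (SE, adjusted p 0.0279, 0.0419 and 1.72e-08 by edgeR). In cKO they were −0.23 and −0.10 at 4 and 8 h (not called) and −2.68 at 24 h.

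Among 6336 genes compared over the 24 libraries by Pearson r on a log2 scale, the closest to A130077B15Rik was Vmn1r58, listed as a vomeronasal receptor, at 0.998. Next came the members 4930511M06Rik (0.995), Gm20300 (0.995) and Gm17644 (0.994). Of the 20 closest genes 9 were members and 6 of those repeat-sharing, while 186 of the 6336 genes compared were members. Repeat sharing was classed for members only, so no share over all genes can stand beside the 6. The lowest of the 20 had an r of 0.977. These values share libraries and depth, and with them any sequence held in common. A630089N07Rik, which shares its sequence with 182 other genes, kept a course of its own, with 412 to 499 TPM at 0 h, 644 to 718 TPM at 4 h, 560 to 1063 TPM at 8 h and 122 to 216 TPM at 24 h in WT.

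**Figure D5:**
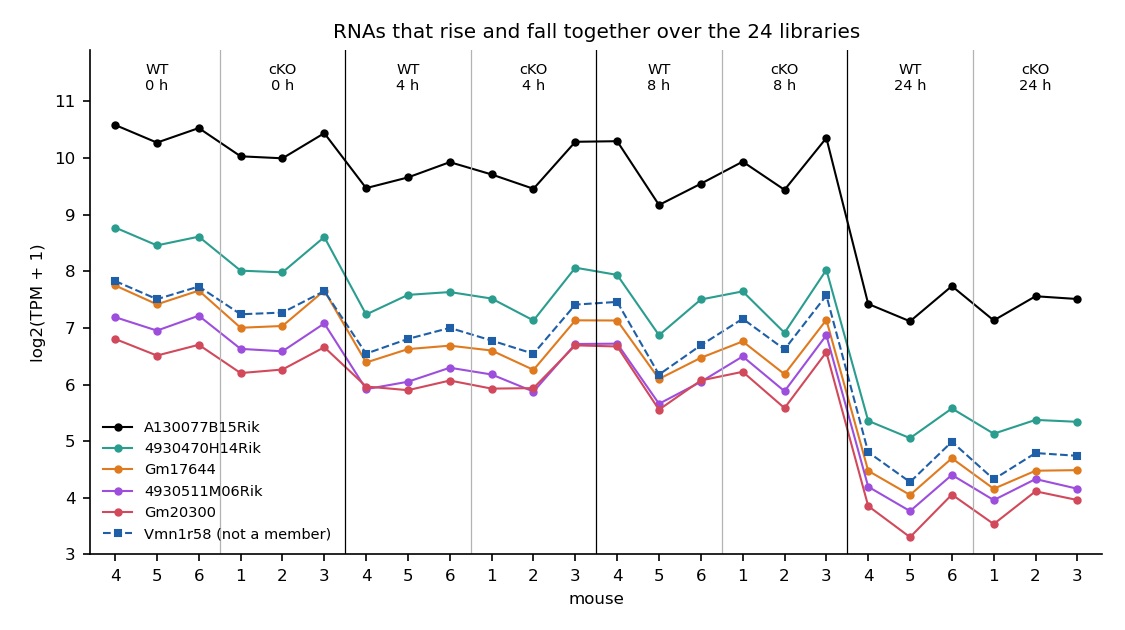
log2(TPM + 1) of 5 members and of Vmn1r58 in each of the 24 libraries, ordered by time, genotype and mouse. The lines run in parallel, high in cKO mouse 3 at 4 h and 8 h and lowest in the 6 libraries of 24 h.

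Genotype left few marks on the members. At 0 h 0 of 189 were called by edgeR (0.445% of all genes were), 15 had an unadjusted p under 0.05 (7.94% of them, against 7.37% of all genes), and DESeq2 called 1. At 4 h 1 was higher and 2 lower in cKO, 1.59% of the members, against 0.82% of all genes (0.436% higher and 0.384% lower). An unadjusted p under 0.05 was reached by 19 members (10.1%, against 11.8% of all genes), and DESeq2 also called 3, the same genes. At 8 h 0 were called (0.183% of all genes), with 17 at an unadjusted p under 0.05 (8.99%, against 9.93% of all genes) and 0 by DESeq2. At 24 h 0 were called (0.105% of all genes), with 1 at an unadjusted p under 0.05 (0.529%, against 3.69% of all genes) and 0 by DESeq2. Since Tcf7 itself went against the label at 0, 4 and 8 h, directions below are those of the libraries labelled cKO and WT.

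4930523C07Rik (chromosome 1, 160044382 to 160080208, plus strand), a protein-coding gene without a name, was higher in the libraries labelled cKO at 4 h. They gave 65.4, 62.3 and 65.0 TPM against 41.4, 48.6 and 47.4 TPM in WT, with no overlap. The log2 difference was 0.44 ± 0.107 (SE, adjusted p 0.0347 by edgeR). At 0 h both genotypes stood at 75.7 to 94.2 TPM, and at 24 h at 16.3 to 19.6 TPM. The call was lost in 8 of 15 alternatives, with adjusted p up to 0.150, among them all those without mouse 2, 3, 4, 5 or 6.

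Shld1 was lower in the libraries labelled cKO at 4 h, with 16.04, 17.2 and 21.2 TPM against 30.2, 26.8 and 28.6 TPM in WT. The libraries did not overlap, and the log2 difference was −0.70 ± 0.153 (SE, adjusted p 0.0146 by edgeR). Leaving out mouse 1, 2, 4 or 6 ended the call, with adjusted p up to 0.109. At 8 h the libraries labelled cKO gave 16.4, 19.4 and 19.7 TPM and those labelled WT 27.0, 20.9 and 24.1 TPM, and at 24 h the groups overlapped.

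Gm6644 was the third, with 400, 361 and 371 TPM in the libraries labelled cKO and 494, 521 and 466 TPM in WT at 4 h. Its log2 difference was −0.43 ± 0.0936 (SE, adjusted p 0.0146 by edgeR). Summed with Akr1b3 the pair stood at 322 ± 27.2 CPM in cKO and 414 ± 30.9 CPM in WT (SD, n = 3), and the difference was no longer called (−0.36 ± 0.0946, adjusted p 0.0546 by edgeR). It was also lost without mouse 2, 3 or 6, and without the 4 h library of cKO mouse 3 alone. In WT the copy held 80.7% of the pair's counts at 0 h and 94.3% at 4 h, and in cKO 81.4% and 89.9%.

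An interaction compares the difference between genotypes after activation with the same difference before it. By edgeR 0 members were called at 4 h (0.00872% of all genes), 8 h (0.00872%) and 24 h (0.0174%). An unadjusted p under 0.05 was reached by 13, 14 and 8 members (6.88%, 7.41% and 4.23%, against 7.11%, 7.95% and 4.29% of all genes), and DESeq2 called 0, 1 and 0. The smallest adjusted p by edgeR were 0.497, 0.299 (Gm4070 at 8 h, log2 −7.60) and 0.875. Summed with Gvin1, Gm4070 had a log2 ratio of cKO to WT means of 0.25 at 0 h and 0.22 at 8 h. Slc28a2b, with 82.1 to 101 TPM in WT and 39.7 to 65.5 TPM in cKO at 0 h, and 2700038G22Rik, with 6.98 to 8.86 TPM in WT and 3.47 to 6.04 TPM in cKO, had libraries without overlap at 0 h but were not called (log2 −0.77 and −0.79, adjusted p 0.255 and 0.159 by edgeR).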

How the data were processed

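Per the submitters' processing notes, the authors used STAR, RSEM and DESeq2 with genome mm10 (versions not given in the sources used here). The deposited files give the expected count, TPM and FPKM of every gene, per the file headers, 1 file a library. Levels use TPM, and FPKM was not used. Rounded expected counts were tested by edgeR 4.0.16 (R 4.3.3) after TMM scaling and its filter on low counts, which kept 11470 genes. The quasi-likelihood fit was robust and had 8 group means. P-values are two-sided and Benjamini-Hochberg adjusted over all genes tested. SE is the size of the log2 change over the root of its F value. Replicates are separate mice per the labels. The alternatives were DESeq2 1.42.0, limma 3.58.1 on log2(TPM + 1) and log2(TPM + 0.1), no filter, no Rn45s, fits of only the groups compared, libraries left out and a mouse block. Depth was 5846265 to 9700397 counts a library, and counting intervals and floors cover counting error only.

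The members and lists were chosen with earlier results of these data known, and roles were assigned by hand from current symbols after values were seen. The rule for named members takes called members of each genotype comparison, in WT the 10 largest changes per direction at 24 h and 6 at 4 and 8 h without overlap, the 10 highest, the 6 most even, up to 6 transient, those nearest the threshold and the 3 most spread. Role members, Snhg15, Selenot and genes paired with members were named besides. Sequences were compared with blastn 2.17.0 and tables made with Python 3.11.15 and pandas 2.3.3. A mouse gives all 4 times of its genotype, so numbers pair libraries over time and never across genotypes. Deviations of libraries of the same mouse from their group means had an r of −0.08 to 0.16 (median 0.018, 36 pairs), against −0.14 to 0.08 for other mice (72 pairs).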

Additional observations from a re-analysis of the deposited data

How the results depend on the processing

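Counts of called members over time kept to within 1.5 times under all alternatives run: without 1 mouse at a time they ran from 105 to 126 (4 h), 126 to 139 (8 h) and 143 to 160 (24 h) in WT and from 93 to 113, 113 to 130 and 146 to 155 in cKO. With the mouse as a replicate block they were 124, 138 and 160 in WT, 116, 133 and 155 in cKO and 0, 0 and 0 for the interactions, so the block moved no count by over 1.5 times. For genotype at 0 h, where edgeR called 0, DESeq2 called 1, the fit with no filter 1, limma 2 with either pseudocount, and fits without 1 mouse 0 to 2 (2 without mouse 3). The 3 calls at 4 h became 6 with no filter, 0 to 2 without 1 mouse (0 without mouse 2 or 6, 1 without mouse 3), and 1 without the 4 h library of cKO mouse 3. At 8 h fits without 1 mouse called 0 to 1 (1 without mouse 4). The interaction gave 1 call at 4 h with no filter and 1 at 8 h with DESeq2. Without the 8 h libraries of mice 2 and 5, 133 members were called at 8 h in WT, 126 in cKO and 0 between genotypes. A level of 10 TPM would take in 323 members, 50 TPM 109, and 25 TPM in every group 81. Of 47 named calls, 40 held in every alternative and 4 were lost in at least 1 with their direction kept. When copies were summed with their parent, Gm4070 turned to −2.55 at 24 h and stood at −0.12 at 8 h (adjusted p 0.656 by edgeR, so that call was lost too), and Gm10052 turned to 2.00 and 1.69. The cause was not tested beyond that sum. Depth limits members near 0, such as Gm5547 and Gm10052.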
